A study of Mus musculus with 6 samples.

Results

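The genes described here carry glucose into the cell, break it down to pyruvate and lactate, and store it as glycogen. They were taken from the deposited count table as every row whose gene name is one of 36 symbols, out of 35618 rows in the table. The 36 symbols matched 37 rows, because Aldoa has a second row, and 36 rows, one for each symbol, had enough counts to be tested. RNA was sequenced from mouse hearts, with 3 libraries from GSDMD-CKO mice, which lack Gsdmd in heart muscle by a myocardium-specific knockout, and 3 from mice with floxed Gsdmd alleles (flox/flox). All the mice were 6 to 8 weeks old when injected in the abdomen with doxorubicin, an anthracycline chemotherapy drug that is toxic to the heart, at 20 mg/kg, and heart tissue was taken 3 days later. Both genotypes therefore carry the drug, and no library without it was used here. The labels do not name what drove the deletion or say whether a library is one animal, and p-values therefore cover only the spread seen between libraries, which may be technical. The libraries are called knockout 1 to 3 and floxed 1 to 3, after the numbers in the labels.

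A working heart draws most of its energy from fatty acids and takes up glucose mainly through the insulin-responsive transporter GLUT4, with GLUT1 as the transporter of most other cells. Inside the cell hexokinase traps glucose as glucose-6-phosphate, which either enters glycolysis or is stored as glycogen by glycogen synthase and released again by glycogen phosphorylase. Many of these steps have a form made mainly in striated muscle and another made more widely, so the RNA of a heart holds both the forms of the muscle cells and those of the fibroblasts, vessels and immune cells beside them.

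The libraries held 17279147 to 18875902 counts in knockout hearts and 17369668 to 18753908 counts in floxed hearts. Gsdmd itself had 77.4, 137 and 111 CPM, that is, counts scaled to the size of each library, in knockout 1 to 3, against 6707, 8272 and 7861 CPM in floxed 1 to 3. Gsdmd was thus far lower in all 3 knockout libraries, as their labels have it. Mitochondrially encoded genes held 5.48% to 18.1% of the counts in knockout hearts and 6.70% to 11.2% in floxed hearts, with the highest share in knockout 1. Libraries of the same genotype correlated at 0.899 to 0.98 over genes and libraries of different genotypes at 0.918 to 0.97, so the genotypes did not form separate clusters. All 7 cardiomyocyte markers were found in the table, and their summed level was 9693 to 20190 CPM in knockout hearts and 15130 to 22000 CPM in floxed hearts. The lowest of these sums was that of knockout 3.

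None of the 36 genes passed the test between the genotypes. The edgeR quasi-likelihood test, with Benjamini-Hochberg adjustment over 16591 genes, called 0 of 36 at an adjusted p under 0.05, against 2 genes or 0.0121% of the whole table, and the lowest adjusted p among the 36 was 0.578. At an unadjusted p under 0.05 there were 2 lower genes, Gapdh and Gbe1, and 1 higher gene, Aldoc, where 2.65% of all genes tested were lower and 4.37% were higher, 7.02% in all. Fold changes were negative for 23 of the 36 genes, or 63.9%, against 46.2% of all genes tested. Their median log2 fold change was -0.13, and that of all genes tested was 0.03. The knockout libraries lay all below the floxed libraries for 1 gene, Gbe1, where 5.98% of all genes did so, and all above them for 1 gene, Pfkl, where 5.82% did so. DESeq2 called 1 of the 36, Gapdh, as lower at an adjusted p of 0.0216, against 0.508% of its genes called lower and 0.605% called higher.

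**Figure D1:**
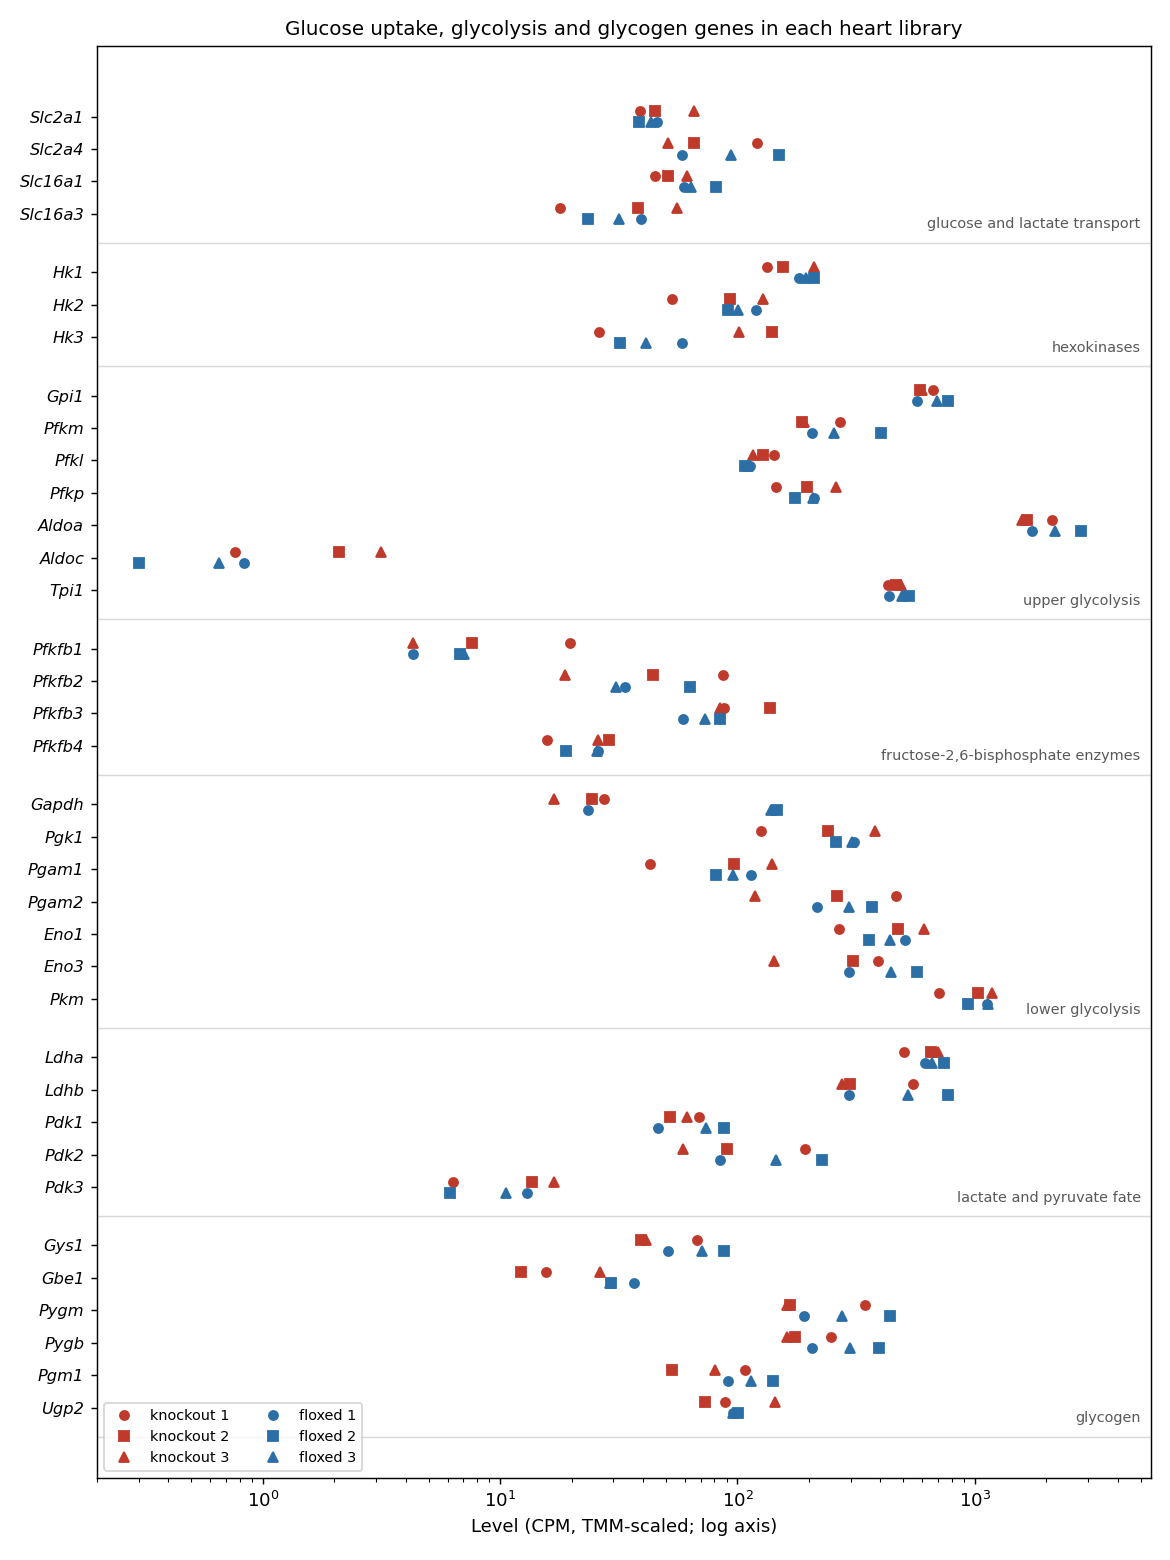
Level of each of the 36 genes in each library, in CPM scaled by TMM on a log axis, grouped by role, with knockout libraries in red above floxed libraries in blue and a symbol for each library number. The groups overlap for every gene except Gbe1, which is lower, and Pfkl, which is higher, in all 3 knockout libraries.

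The plot of levels by library shows that most genes spread as widely within a genotype as between the genotypes. Of the 36 genes, 16 had their highest level in floxed 2 and 12 in knockout 3, while 13 had their lowest level in knockout 1 and 11 in knockout 3. Floxed 3 was neither the highest nor the lowest library for any gene.

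Glucose and lactate transport did not pass the test for any of its 4 genes, with 2 negative and 2 positive fold changes. Slc2a4 encodes GLUT4 and had the highest level of the 4 per length, at 22.2 ± 8.36 FPKM in knockout hearts and 28.4 ± 12.0 FPKM in floxed hearts (SD, n = 3 each). Slc2a4 had 121, 65.3 and 50.9 CPM in knockout 1 to 3, against 58.3, 149 and 93.5 CPM in floxed 1 to 3. The groups overlapped, with floxed 2 highest and knockout 3 lowest, and the log2 fold change was -0.34 ± 0.43 (SE; edgeR adjusted p = 0.941). Slc2a1, which encodes GLUT1, ran the other way within the knockout group, at 38.8, 45.0 and 65.5 CPM in knockout 1 to 3, against 45.9, 38.6 and 43.0 CPM in floxed 1 to 3. Its log2 fold change was 0.23 ± 0.22 (SE; edgeR adjusted p = 0.919). Slc16a1 encodes MCT1, a carrier that moves lactate and pyruvate in either direction, and had 45.1, 50.8 and 61.2 CPM in knockout hearts, against 59.7, 81.2 and 63.7 CPM in floxed hearts. Knockout 3 overlapped the floxed range by a narrow margin, and the log2 fold change of Slc16a1 was -0.38 ± 0.19 (SE; edgeR unadjusted p = 0.0895, adjusted p = 0.777). Slc16a3 encodes MCT4, the lactate exporter of strongly glycolytic cells. Slc16a3 had 17.9, 38.2 and 55.5 CPM in knockout 1 to 3, against 39.1, 23.5 and 31.8 CPM in floxed 1 to 3, so that both the lowest and the highest library were knockouts.

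The 3 hexokinases, which add the first phosphate to glucose, were measured with no call in the whole comparison. Hk1 is the form of most tissues and had the highest mean level per length over all libraries, at 19.8 ± 6.45 FPKM in knockout hearts and 22.8 ± 0.85 FPKM in floxed hearts (SD, n = 3 each). Hk1 had 133, 155 and 210 CPM in knockout 1 to 3, against 182, 210 and 194 CPM in floxed 1 to 3, with a log2 fold change of -0.23 ± 0.22 (SE; edgeR adjusted p = 0.911). Hk2, the insulin-responsive form of muscle and heart, had 52.9, 93.2 and 128 CPM in knockout 1 to 3, against 120, 91.0 and 100 CPM in floxed 1 to 3. The knockout libraries of both genes stood in the same order and the groups overlapped. Hk3 is known chiefly from white blood cells of the myeloid lineage, and had 26.1, 140 and 101 CPM in knockout 1 to 3, against 58.2, 32.0 and 41.1 CPM in floxed 1 to 3. Knockout 2 and 3 lay above every floxed library and knockout 1 lay below all of them. With all libraries, Hk3 had a log2 fold change of 1.03 ± 0.56 (SE; edgeR unadjusted p = 0.110, adjusted p = 0.799). Without knockout 1 it was 1.44 and passed the test, with an edgeR adjusted p of 0.0393, in a fit that called 2.41% of genes higher. Without knockout 2 it was 0.54, with an edgeR adjusted p of 1.00. The 7 macrophage and monocyte markers summed to 901, 2833 and 3074 CPM in knockout 1 to 3. In floxed 1 to 3 the sums were 3398, 1654 and 2999 CPM. Lyz2 made up most of these sums, at 553 to 1914 CPM in knockout hearts and 1069 to 2308 CPM in floxed hearts. Fold changes were positive for 4 of the 7, Csf1r, Fcgr1, Itgam and Ptprc, and negative for Adgre1, Cd68 and Lyz2. Each of those 4 stood as Hk3 did, with knockout 2 and 3 above every floxed library and knockout 1 below all of them. The edgeR fit called none of the 7, and their part in the Hk3 level was not tested.

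In upper glycolysis, which takes glucose-6-phosphate to triose phosphates, 4 of 7 genes had a negative fold change and none passed the test. Aldoa, the muscle aldolase, was the most abundant of all 36 genes per length, at 610 ± 45.7 FPKM in knockout hearts and 763 ± 156 FPKM in floxed hearts (SD, n = 3 each). Aldoa had 2112, 1652 and 1586 CPM in knockout 1 to 3, against 1744, 2808 and 2183 CPM in floxed 1 to 3. The groups overlapped, and its log2 fold change was -0.33 ± 0.28 (SE; edgeR adjusted p = 0.896). The second row named Aldoa held 9, 21 and 17 counts in knockout 1 to 3, against 6, 7 and 3 counts in floxed 1 to 3, and was not tested. Aldoc, the aldolase best known from brain, was near the floor of detection. It had 12, 40 and 63 counts in knockout 1 to 3, or 0.761, 2.09 and 3.15 CPM, against 16, 5 and 12 counts in floxed 1 to 3, or 0.831, 0.300 and 0.653 CPM. Knockout 2 and 3 were above all floxed libraries and knockout 1 was within their range. The log2 fold change of Aldoc was 1.74 ± 0.63 (SE; edgeR unadjusted p = 0.0287, adjusted p = 0.645).

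Phosphofructokinase commits sugar to glycolysis, and its muscle, liver and platelet subunits are encoded by Pfkm, Pfkl and Pfkp. Pfkm was the most abundant of them per length, at 64.2 ± 8.68 FPKM in knockout hearts and 85.2 ± 27.4 FPKM in floxed hearts (SD, n = 3 each). Pfkm had 270, 187 and 190 CPM in knockout 1 to 3, against 206, 404 and 255 CPM in floxed 1 to 3 (log2 fold change -0.42 ± 0.31, SE; edgeR adjusted p = 0.877). Pfkl, at chromosome 10, 77822781 to 77845917 on the minus strand as the table gives it, had 143, 128 and 116 CPM in knockout 1 to 3, against 113, 108 and 111 CPM in floxed 1 to 3. All knockout libraries were thus above all floxed libraries for Pfkl, by a small step, and the log2 fold change was 0.22 ± 0.16 (SE; edgeR adjusted p = 0.880). Pfkp had 146, 197 and 259 CPM in knockout 1 to 3, against 211, 175 and 208 CPM in floxed 1 to 3, and its log2 fold change of 0.02 ± 0.25 (SE) turned negative under some settings. Gpi1 and Tpi1, the isomerases on either side of aldolase and phosphofructokinase, had log2 fold changes of -0.13 ± 0.22 and -0.08 ± 0.20 (SE). Their 95% intervals, -0.64 to 0.38 for Gpi1 and -0.54 to 0.39 for Tpi1, were among the narrowest of the 36 genes.

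The 4 Pfkfb genes encode bifunctional enzymes that make and remove fructose-2,6-bisphosphate, the strongest activator of phosphofructokinase. Their fold changes were all positive in the edgeR fit, with a median of 0.37, and none passed the test. Pfkfb3, the inducible form, had the highest level per length at 13.7 ± 4.13 FPKM in knockout hearts and 9.48 ± 1.37 FPKM in floxed hearts (SD, n = 3 each). Pfkfb3 had 87.6, 137 and 84.2 CPM in knockout 1 to 3, against 59.2, 84.7 and 73.0 CPM in floxed 1 to 3. Knockout 3 fell below floxed 2 by a narrow margin, and the log2 fold change was 0.51 ± 0.25 (SE; edgeR unadjusted p = 0.0802, adjusted p = 0.759). Pfkfb2, the heart form, had 86.9, 44.1 and 18.8 CPM in knockout 1 to 3, against 33.5, 62.9 and 30.8 CPM in floxed 1 to 3, so that the highest and the lowest library were both knockouts. Pfkfb1 and Pfkfb4 had log2 fold changes of 0.80 ± 0.55 and 0.00 ± 0.26 (SE). The positive values of Pfkfb1 and Pfkfb2 turned negative without knockout 1, at -0.04 and -0.45, and that of Pfkfb4 was negative under most other settings.

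**Figure D2:**
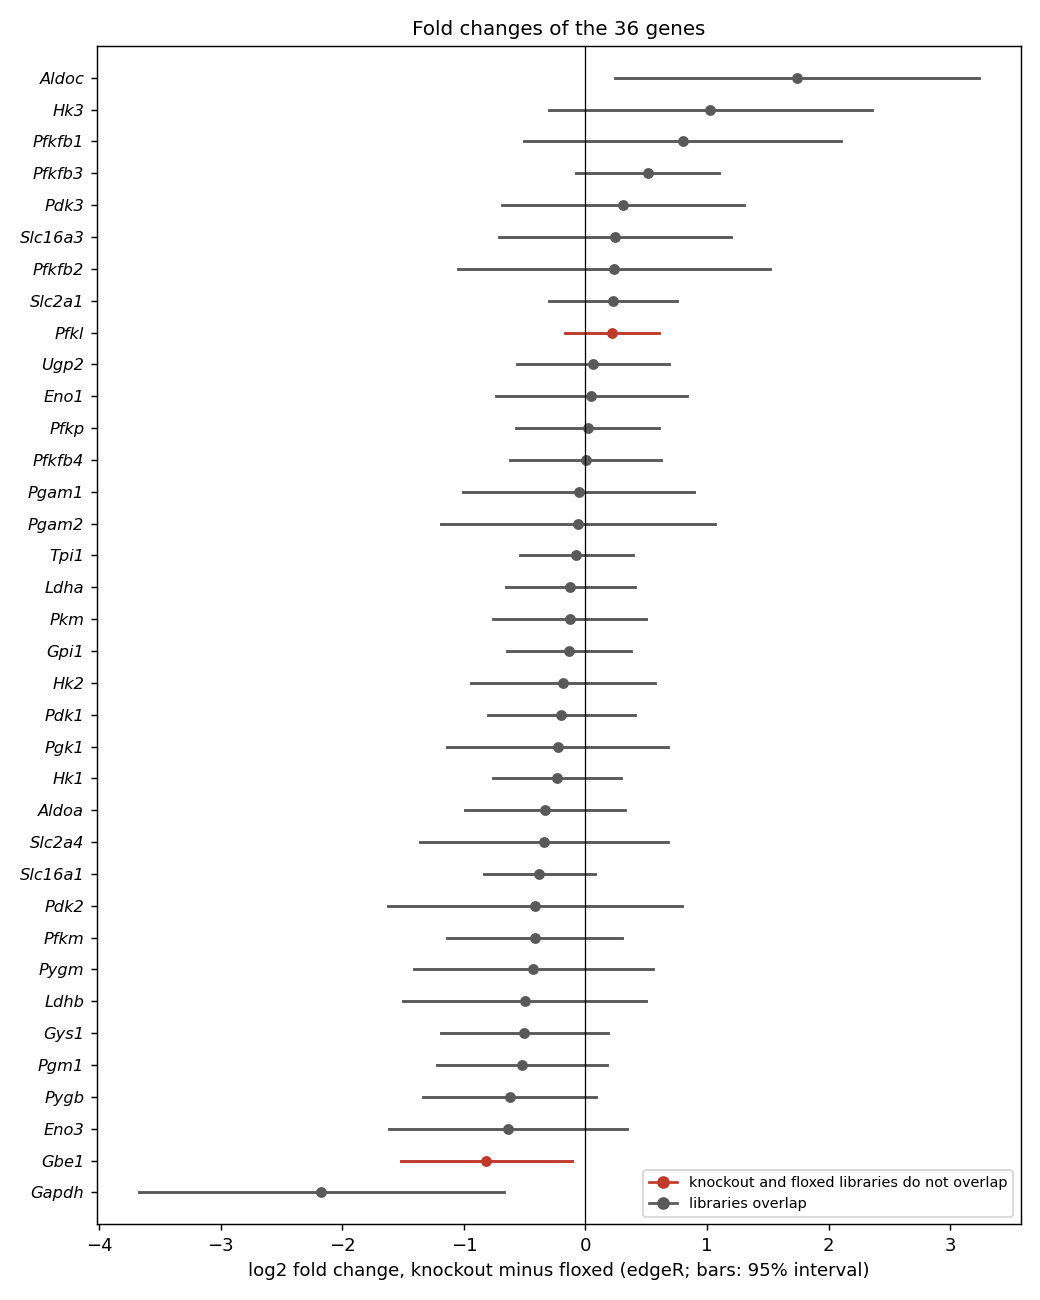
Fold change of each of the 36 genes, knockout minus floxed, on the log2 scale from edgeR, with bars for the 95% interval, ordered from the highest at the top. The intervals of Gapdh and Gbe1 lie below 0 and that of Aldoc above 0, and red marks Gbe1 and Pfkl, whose knockout and floxed libraries do not overlap.

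Lower glycolysis, from glyceraldehyde-3-phosphate to pyruvate, had 6 negative fold changes among 7 genes, with a median of -0.13 and no call. Pgam2, the muscle phosphoglycerate mutase, was the most abundant of them per length where Gapdh is read from its own row alone, at 325 ± 175 FPKM in knockout hearts and 346 ± 79.2 FPKM in floxed hearts (SD, n = 3 each). Pgam2 had 464, 263 and 119 CPM in knockout 1 to 3, against 217, 370 and 296 CPM in floxed 1 to 3, so that the knockout libraries enclosed the floxed ones. Its wide spread left a log2 fold change of -0.06 with a 95% interval of -1.19 to 1.07. Pgam1, the widespread form, had the opposite order among knockouts, at 43.0, 97.0 and 140 CPM in knockout 1 to 3, against 114, 81.4 and 95.8 CPM in floxed 1 to 3. Eno3, the muscle enolase, had 392, 305 and 143 CPM in knockout 1 to 3, against 295, 569 and 443 CPM in floxed 1 to 3. For Eno3 the log2 fold change was -0.64 ± 0.42 (SE; edgeR adjusted p = 0.862). Eno1, the widespread enolase, had 269, 474 and 611 CPM in knockout 1 to 3, against 510, 358 and 440 CPM in floxed 1 to 3, and a log2 fold change of 0.05 ± 0.33 (SE). Pgk1 and Pkm, whose enzymes make ATP directly, had log2 fold changes of -0.23 ± 0.38 and -0.13 ± 0.27 (SE), and each was lowest in knockout 1.

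Gapdh, the dehydrogenase of lower glycolysis and a common reference gene, had the most negative fold change of the 36 genes, and near-identical sequences lie elsewhere in the genome. Its own row, at chromosome 6, 125138678 to 125143430 on the minus strand as the table gives it, held 27.4, 24.3 and 16.8 CPM in knockout 1 to 3, against 23.4, 147 and 139 CPM in floxed 1 to 3. Floxed 1 lay among the knockouts, and floxed 2 and 3 stood far above. This row had a log2 fold change of -2.17 ± 0.64 (SE; edgeR unadjusted p = 0.0111, adjusted p = 0.578). In GENCODE release M21, 81 other genes matched the Gapdh coding sequence at 95% identity or more over 100 bases or more. Of these, 76 are annotated as pseudogenes and 76 have a row in the table. Over all libraries those rows held 1090% of the counts of the Gapdh row itself.

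Most of these counts were in the row of the pseudogene Gm5559. The Gm5559 row had 516, 482 and 369 CPM in knockout 1 to 3, against 493, 635 and 613 CPM in floxed 1 to 3. Gm5559 differs from Gapdh by 1 base, T463A, over 999 aligned coding bases, with positions counted from 1 at the first base of the longest annotated Gapdh coding sequence. Both stretches around that base are shown because this base is the only one that tells the genes apart within the aligned coding bases. They are bases 403 to 523 of the coding sequence on GRCm38, with the differing base in capitals. The Gapdh gene is at chr6:125161715-125166467 on the minus strand and Gm5559 is at chr5:95861714-95862715 on the plus strand.
Gapdh: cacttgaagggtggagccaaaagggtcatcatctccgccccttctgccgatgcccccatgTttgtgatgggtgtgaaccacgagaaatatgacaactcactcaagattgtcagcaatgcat
Gm5559: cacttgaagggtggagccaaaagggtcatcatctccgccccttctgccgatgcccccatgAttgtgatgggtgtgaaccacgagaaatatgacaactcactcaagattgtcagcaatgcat

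A second pseudogene, Gm7336, had 0 differences from Gapdh over 1017 aligned bases and 79.7, 85.5 and 128 CPM in knockout 1 to 3, against 134, 192 and 153 CPM in floxed 1 to 3. Together, Gapdh and its 76 near-identical rows held 644, 611 and 537 CPM in knockout 1 to 3, against 674, 1004 and 929 CPM in floxed 1 to 3. These sums did not overlap between the genotypes, where 5.98% of single genes had all knockouts below all floxed libraries. The log2 fold change of the sum was -0.54 ± 0.24 (SE; edgeR unadjusted p = 0.0572, adjusted p = 0.729), and the sum was chosen after its values were seen. The Gapdh row took 4.26% of the summed counts in knockout 1 (exact 95% interval 3.87% to 4.67%), 3.99% in knockout 2 (3.64% to 4.36%) and 3.13% in knockout 3 (2.81% to 3.48%), against 3.48% in floxed 1 (3.17% to 3.81%), 14.6% in floxed 2 (14.1% to 15.2%) and 14.9% in floxed 3 (14.4% to 15.5%). The intervals cover counting error only. The sources used here do not say how a read matching several genes was counted, which leaves the level of the Gapdh row and its fold change uncertain.

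**Figure D3:**
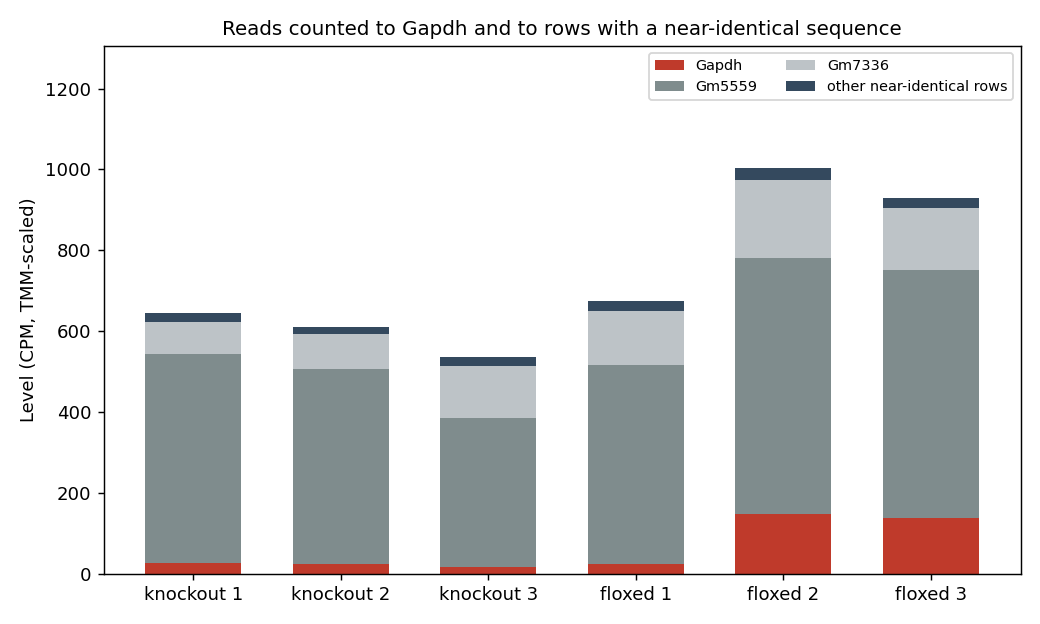
Level of the Gapdh row and of the 76 rows with a near-identical sequence in each library, stacked in CPM scaled by TMM, with knockout libraries on the left. Gm5559 forms the largest block in every library, and the Gapdh block at the bottom is large in floxed 2 and floxed 3 only.

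For the other genes with near-identical copies the counts in those rows were few. Gpi1, Tpi1, Pgk1, Pgam1, Eno1, Pkm, Ldha and Ldhb had 1 to 5 such copies, whose rows held at most 1.21% of the gene's own counts, the share for Eno1. Summed with its copies, Eno1 had a log2 fold change of 0.05, and Pgk1 had -0.23, as on their own rows. The 27 genes with no near-identical copy had 15 negative fold changes and a median of -0.18.

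Lactate dehydrogenase turns pyruvate into lactate and back, and the pyruvate dehydrogenase kinases Pdk1, Pdk2 and Pdk3 hold pyruvate out of the mitochondrial oxidation pathway. Fold changes were negative for 4 of these 5 genes, with a median of -0.20, and none passed the test. Ldhb, the heart form, had the highest level per length at 234 ± 73.3 FPKM in knockout hearts and 332 ± 139 FPKM in floxed hearts (SD, n = 3 each). Ldhb had 548, 298 and 275 CPM in knockout 1 to 3, against 295, 769 and 522 CPM in floxed 1 to 3 (log2 fold change -0.50 ± 0.42, SE; edgeR adjusted p = 0.896). Ldha, the form of glycolytic muscle and many other tissues, was steadier, at 501, 652 and 700 CPM in knockout 1 to 3, against 617, 741 and 663 CPM in floxed 1 to 3. Its log2 fold change was -0.13 with a 95% interval of -0.66 to 0.41. Pdk2 had 193, 90.1 and 59.1 CPM in knockout 1 to 3, against 84.4, 227 and 146 CPM in floxed 1 to 3, in the same order over libraries as Ldhb within the knockouts. Pdk1 had 68.6, 51.8 and 61.0 CPM in knockout 1 to 3, against 46.4, 87.9 and 73.7 CPM in floxed 1 to 3. Pdk3 had a log2 fold change of 0.31 ± 0.42 (SE).

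The promoters of Ldha and Ldhb are shown because these forms of one enzyme stood in opposite order across the knockout libraries. They are reference sequences, the same for every library, and any part of them in that order was not tested. Each is the 250 bases before a RefSeq gene start on GRCm38.p6, that of Ldha, the entry with more matches of the 2 for the gene, at chr7:46845554-46845803 on the plus strand and that of Ldhb at chr6:142507958-142508207 on the minus strand. In Ldha, capitals mark matches on either strand to ACGTG, which is one form of the core letters of the hypoxia response element. In Ldhb they mark matches to CTANNNNTAG, the outer letters of a MEF2 element with any base between them.
Ldha promoter: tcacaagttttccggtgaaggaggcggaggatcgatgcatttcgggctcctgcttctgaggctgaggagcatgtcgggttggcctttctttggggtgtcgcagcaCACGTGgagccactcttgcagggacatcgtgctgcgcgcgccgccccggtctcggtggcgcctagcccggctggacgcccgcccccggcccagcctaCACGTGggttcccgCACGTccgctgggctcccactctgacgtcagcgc
Ldhb promoter: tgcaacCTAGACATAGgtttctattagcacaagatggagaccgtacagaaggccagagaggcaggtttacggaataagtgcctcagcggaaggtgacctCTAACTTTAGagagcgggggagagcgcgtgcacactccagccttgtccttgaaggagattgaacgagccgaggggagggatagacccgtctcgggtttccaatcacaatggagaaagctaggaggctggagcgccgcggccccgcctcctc

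The Ldha promoter holds 5 matches to ACGTG over both strands, which overlap where CACGTG reads the same on each strand, and the Ldhb promoter holds 0. Other forms of the core letters were not counted in either promoter. As the Ldha entry was chosen for its matches, this contrast is partly set by the choice. The Ldhb promoter holds 2 matches to CTANNNNTAG, which reads the same on both strands, and the Ldha promoter holds 0. Neither match has only A or T between the outer letters, so neither is a full MEF2 element. Among 32851 RefSeq mouse promoters, 16.6% hold ACGTG and 3.20% hold CTANNNNTAG in these 250 bases. Of the 36 genes, 35 have an entry, with 55 promoters in all, and Slc2a4 has none. ACGTG is in 23 of the 55, or 41.8%, and in at least one promoter of 19 of the 35 genes, while CTANNNNTAG is in 1 of the 55. The share by gene was not taken over all genes, so the 19 has nothing to be read against. A match describes the letters and is not a measured binding site.

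The glycogen genes had the most negative median of the roles, at -0.51, with 5 negative fold changes among 6 genes and no call. Gbe1, the branching enzyme, is at chromosome 16, 70110837 to 70366604 on the plus strand as the table gives it. Gbe1 had 15.5, 12.3 and 26.3 CPM in knockout 1 to 3, against 36.8, 29.4 and 29.0 CPM in floxed 1 to 3. All knockout libraries were below all floxed libraries, with knockout 3 closest to them. Gbe1 had a log2 fold change of -0.82 ± 0.30 (SE; edgeR unadjusted p = 0.0289, adjusted p = 0.646), which lay between -1.19 and -0.61 with each library left out. Pygm, the muscle glycogen phosphorylase, had the highest level per length of the role at 68.3 ± 25.2 FPKM in knockout hearts and 92.4 ± 35.6 FPKM in floxed hearts (SD, n = 3 each). Pygm had 343, 167 and 162 CPM in knockout 1 to 3, against 191, 439 and 275 CPM in floxed 1 to 3, with overlapping groups. Pygb, the phosphorylase named for brain, stood in a like order, at 247, 176 and 162 CPM in knockout 1 to 3, against 207, 396 and 299 CPM in floxed 1 to 3. The log2 fold change was -0.43 ± 0.42 for Pygm and -0.62 ± 0.30 for Pygb (SE; edgeR adjusted p = 0.919 and 0.757). Gys1, the muscle glycogen synthase, and Pgm1, which joins glucose-6-phosphate to the glycogen path, had log2 fold changes of -0.50 ± 0.29 and -0.53 ± 0.30 (SE). Ugp2, which makes the UDP-glucose used by glycogen synthase, had 0.06 ± 0.26 (SE).

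The muscle or heart form was set against another form of the same step in 12 pairs, made from 11 muscle or heart forms and 12 other forms. The pairs, with that form first, were Slc2a4/Slc2a1, Hk2/Hk1, Pfkm/Pfkl, Pfkm/Pfkp, Pfkfb2/Pfkfb3, Aldoa/Aldoc, Pgam2/Pgam1, Eno3/Eno1, Ldhb/Ldha, Slc16a1/Slc16a3, Pygm/Pygb and Pdk2/Pdk1. The sorting was not measured here, and the label is loose for Slc16a1 and Pdk2, which are not confined to muscle. The counts below rest on this sorting. Of the 11 muscle or heart forms 10 had a negative fold change, with a median of -0.38 and Pfkfb2 as the exception, and of the 12 other forms 5 were negative, with a median of 0.03. None of them passed the test. Within each library the ratio was taken as log2 of FPKM + 0.1 of the muscle or heart form over FPKM + 0.1 of the other, and the 6 libraries were compared by an exact two-sided permutation test, which cannot go below 0.1 with 3 against 3. The difference, knockout minus floxed, was negative in 11 of 12 pairs and positive for Pygm over Pygb, at 0.16. The groups overlapped in every pair, the lowest exact permutation p was 0.2, for Pfkm over Pfkl and for Aldoa over Aldoc, and after Benjamini-Hochberg adjustment over the 12 pairs the lowest was 0.8. The pairs share genes and libraries, so the count of 11 is a description.

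**Figure D4:**
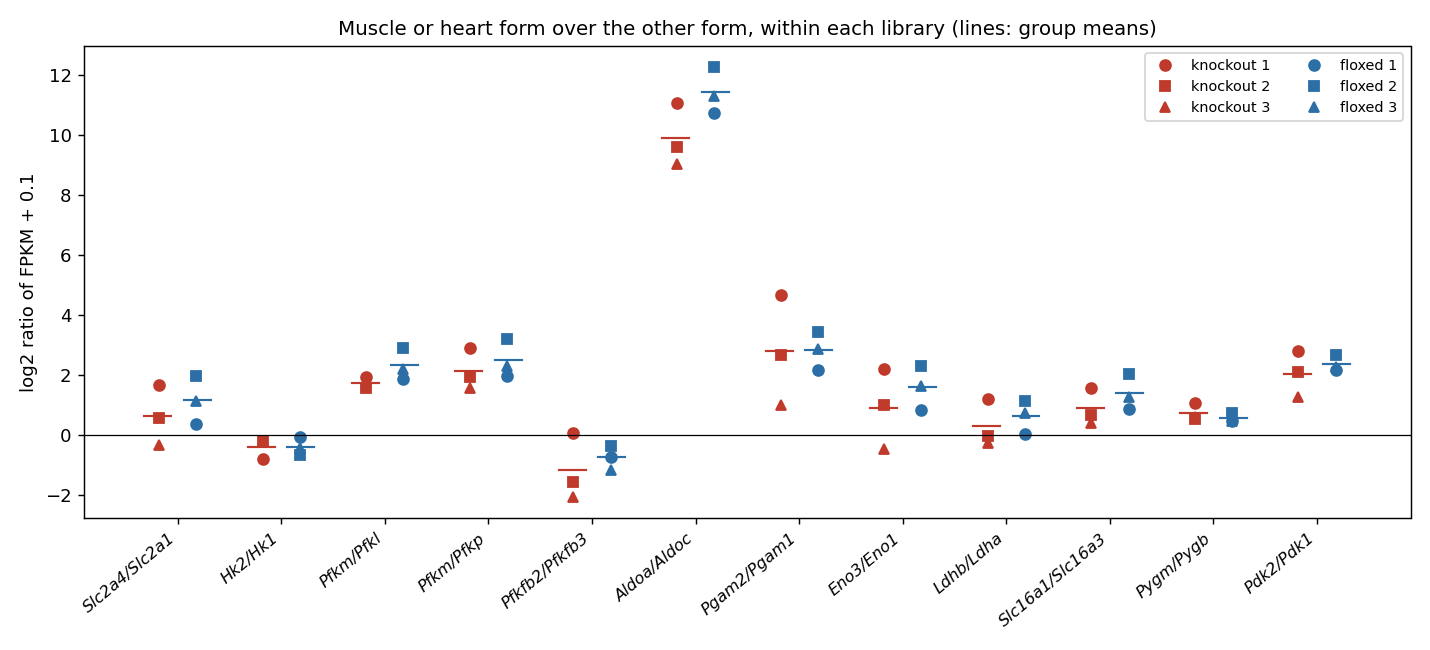
Log2 ratio of the muscle or heart form to the other form within each library, from FPKM + 0.1, with knockout libraries in red left of floxed libraries in blue, and lines at the group means. The knockout and floxed points overlap in all 12 pairs, and the knockout points of Pgam2/Pgam1 run from 1.01 to 4.67, around the floxed points at 2.17 to 3.42.

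In every pair except Pfkm over Pfkl, the ratio differed more between knockout 1 and knockout 3 than between the means of the genotypes. A difference between single libraries varies more than a difference between group means, so this is a description. Slc2a4 over Slc2a1 had log2 ratios of 1.64, 0.54 and -0.35 in knockout 1 to 3, against 0.35, 1.95 and 1.13 in floxed 1 to 3. Pgam2 over Pgam1 had 4.67, 2.67 and 1.01 in knockout 1 to 3, against 2.17, 3.42 and 2.86 in floxed 1 to 3. Eno3 over Eno1 had 2.17, 0.99 and -0.47 in knockout 1 to 3, against 0.84, 2.29 and 1.64 in floxed 1 to 3. In all of these, knockout 1 was high and knockout 3 was the lowest of the 6 libraries. Ldhb over Ldha had 1.21, -0.05 and -0.27 in knockout 1 to 3, against 0.01, 1.13 and 0.73 in floxed 1 to 3. Over the 12 pairs, knockout 1 exceeded knockout 3 in 11, knockout 3 was the lowest library in 9, and floxed 2 exceeded floxed 1 in 11. The exception in the first and the last count was Hk2 over Hk1, with log2 ratios of -0.81, -0.22 and -0.21 in knockout 1 to 3, against -0.09, -0.69 and -0.44 in floxed 1 to 3. Pfkm over Pfkl had 1.91, 1.54 and 1.71 in knockout 1 to 3, against 1.86, 2.89 and 2.20 in floxed 1 to 3, a difference of -0.60. Aldoa over Aldoc had 11.1, 9.58 and 9.01 in knockout 1 to 3, against 10.7, 12.3 and 11.3 in floxed 1 to 3, a difference of -1.54 that rests on few Aldoc counts.

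The levels of these forms, which make up the ratios, are not a separate observation of the split. Here a gene's log2(CPM + 0.1) was centred on its floxed mean and the median over genes was taken in each library. For the 11 muscle or heart forms it was 0.16, -0.46 and -0.84 in knockout 1 to 3, against -0.42, 0.54 and -0.01 in floxed 1 to 3. For the 12 other forms it was -0.33, 0.05 and 0.31 in knockout 1 to 3, against 0.07, -0.09 and 0.03 in floxed 1 to 3. The highest library was floxed 2 for 8 of the 11 muscle or heart forms and the lowest was knockout 3 for 8 of them. Of the 12 other forms, 7 were highest in knockout 3 and 6 were lowest in knockout 1.

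**Figure D5:**
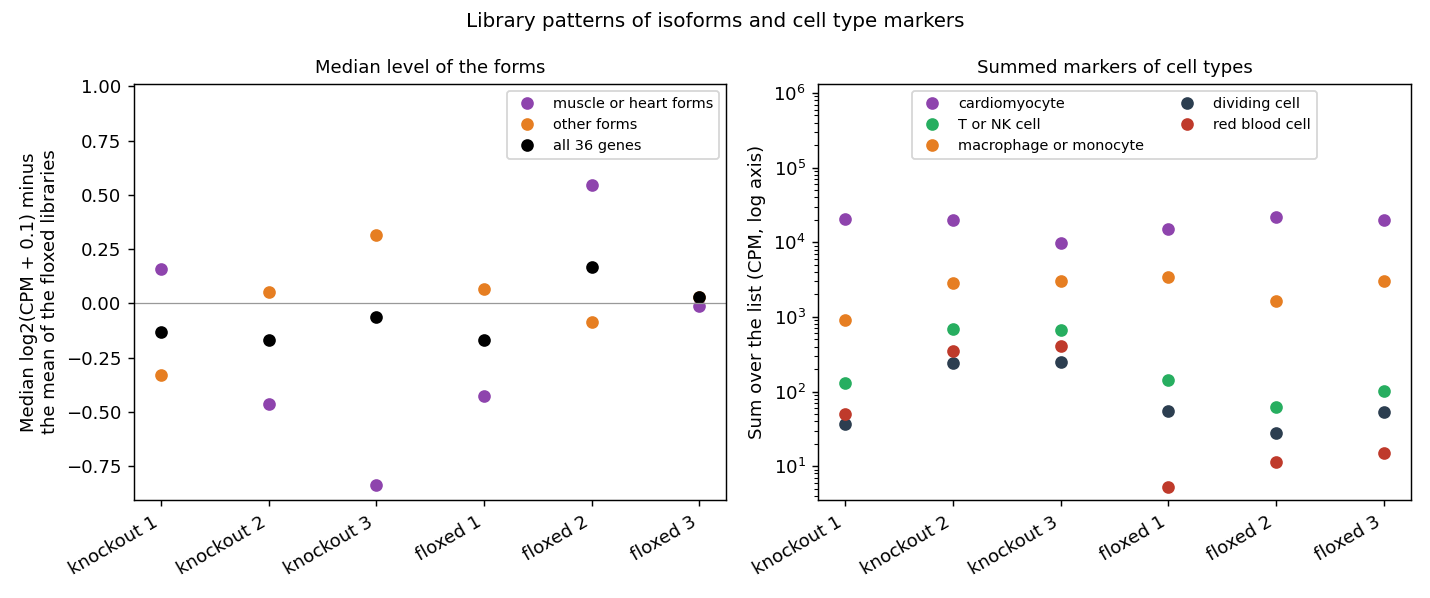
Left, median level in each library of the 11 muscle or heart forms, the 12 other forms and all 36 genes, as log2(CPM + 0.1) centred on the floxed mean, where the point of the other forms in floxed 3, at 0.03, lies under that of all genes. Right, summed level of cell type markers in CPM on a log axis, where knockout 1 lies near the floxed libraries for T or NK cell and dividing cell markers and knockout 2 and 3 lie above.

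Markers of the cells that a heart sample can hold also differed between libraries, as the plot of library patterns shows. The 7 cardiomyocyte markers summed to 20190, 19840 and 9693 CPM in knockout 1 to 3, against 15130, 22000 and 19700 CPM in floxed 1 to 3. In these sums knockout 3 and floxed 1 were lowest in their groups, as for the muscle or heart forms. Tnnt2, Tnni3, Myl2 and Myh6 ran so too, with Myh6 at 5703 CPM in knockout 2. Actc1 was instead highest in knockout 3 and floxed 1 within their groups, at 2942 and 3211 CPM. Ryr2 was lowest of the knockouts in knockout 2, at 133 CPM, and Ttn lowest of the floxed libraries in floxed 3, at 920 CPM. The 4 fibroblast markers summed to 2501, 3179 and 6783 CPM in knockout 1 to 3. In floxed 1 to 3 the sums were 5901, 3110 and 4624 CPM. Col1a1 and Col1a2 made up most of these sums, and Dcn and Pdgfra varied less. Dcn had 653, 437 and 601 CPM in knockout 1 to 3 and 549, 580 and 547 CPM in floxed 1 to 3. Pdgfra ranged from 43.3 to 53.8 CPM in knockout hearts and 41.5 to 56.9 CPM in floxed hearts. The 4 endothelial markers summed to 1285, 979 and 454 CPM in knockout 1 to 3, falling in that order as the muscle or heart forms did. In floxed 1 to 3 they summed to 712, 842 and 598 CPM, with floxed 3 lowest. The 8 T or NK cell markers summed to 129, 688 and 672 CPM in knockout 1 to 3, against 144, 62.3 and 103 CPM in floxed 1 to 3. All 8 of these, all 5 dividing cell markers and all 5 red blood cell markers had positive fold changes. The edgeR fit called none of them, with 7, 4 and 5 at an unadjusted p under 0.05, where 4.37% of all genes were higher, while DESeq2 called 7 of the T or NK cell markers, none of the dividing cell markers and 5 of the red blood cell markers, where it called 0.605% of all genes higher. Without knockout 1, edgeR called 7, 5 and 5 of them, where it called 2.41% of all genes higher. The 5 dividing cell markers summed to 36.2 to 246 CPM in knockout hearts and 28.0 to 55.6 CPM in floxed hearts, and the 5 red blood cell markers to 49.3 to 407 CPM in knockout hearts and 5.30 to 14.9 CPM in floxed hearts. The 5 neutrophil markers summed to 33.1 to 79.3 CPM in knockout hearts and 41.4 to 68.1 CPM in floxed hearts. Of the 4 atrial markers 1 was negative and 3 were positive, with every one at an unadjusted p under 0.05 and none called by edgeR, while DESeq2 called 1, Nppa. Nppa had 343, 233 and 599 CPM in knockout 1 to 3, against 1559, 1203 and 1312 CPM in floxed 1 to 3. Myl7 had 75.1, 5.18 and 0.0998 CPM in knockout 1 to 3, against 0.571, 0.240 and 0.598 CPM in floxed 1 to 3. Sln had 29.4, 3.25 and 0 CPM in knockout 1 to 3, against at most 0.870 CPM in floxed hearts. Myl4 had 88.3, 20.2 and 4.79 CPM in knockout 1 to 3, against at most 9.62 CPM in floxed hearts. In these 3 genes knockout 1 was highest, and knockout 2 also lay above every floxed library. The 4 adipocyte markers summed to at most 2.98 CPM, in knockout 1, and Lep was at 0 in every library. The 12 genes listed for skeletal muscle include Mb and Ckm, which heart muscle also makes in quantity. All 7 tested had negative fold changes, where 46.2% of all genes tested did. The edgeR fit called 1, Tnnt3, where it called 0.0121% of all genes. DESeq2 called 2 of the list as lower, where it called 0.508% of all genes lower. Tnnt3 had 2.28, 1.83 and 2.25 CPM in knockout 1 to 3, against 28.5, 18.4 and 22.5 CPM in floxed 1 to 3. Its log2 fold change was -3.44, at an edgeR adjusted p of 0.0192. The part of these cells in the levels of the glucose genes was not tested, and in bulk tissue fewer cells of a type and less RNA per cell cannot be told apart.

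Left out in turn, knockout 1 changed the counts of calls most. Without it the edgeR fit called 2.41% of genes higher and 0.514% lower, and 1 of the 36 genes, Hk3. At an unadjusted p under 0.05 there were then 8 lower genes, Gys1, Gapdh, Pgm1, Pygb, Pygm, Pdk2, Eno3 and Ldhb, where 8.58% of all genes were lower, and 3 higher genes, Hk3, Aldoc and Pfkfb3, where 10.4% were higher. The log2 fold change without knockout 1 was -0.82 for Gys1, -0.81 for Pgm1, -0.89 for Pygm and -1.05 for Pdk2. It was -0.85 for Pygb, -0.98 for Eno3, -0.90 for Ldhb and -2.34 for Gapdh. Each of these 8 genes missed the adjusted threshold. The median over the 36 genes was -0.08 without knockout 1, and it moved further without knockout 3, to -0.23, and without floxed 2, to -0.06.

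The rest of the pathway was read from lists of 89 further genes, of which 86 had a row and 79 were tested, with 51 negative fold changes and a median of -0.16. The edgeR fit called 0 of the 79, with 2 lower and 1 higher at an unadjusted p under 0.05, where 2.65% of all genes were lower and 4.37% higher. DESeq2 called 1, Stbd1, as lower, where it called 0.508% of all genes lower, and edgeR without knockout 1 called 1 lower, where it called 0.514% lower. In 4 genes, Stbd1, Eno2, Taldo1 and H6pd, all knockouts were below all floxed libraries, where 5.98% of all genes were. Among 17 tested genes of glycogen regulation and breakdown, 13 were negative. Stbd1, a glycogen-binding protein that carries glycogen to the lysosome, had 35.8, 20.2 and 46.9 CPM in knockout 1 to 3, against 78.0, 79.5 and 86.1 CPM in floxed 1 to 3. The groups did not overlap, and its log2 fold change was -1.24 ± 0.30 (SE; edgeR unadjusted p = 0.00421, adjusted p = 0.529; DESeq2 adjusted p = 0.0251). Among 15 tested further isoforms of the same enzymes and carriers, 9 were negative. Eno2, the enolase of neurons, had 4.70, 4.61 and 5.29 CPM in knockout 1 to 3, against 11.1, 8.46 and 8.05 CPM in floxed 1 to 3 (log2 fold change -0.92 ± 0.24, SE; edgeR unadjusted p = 0.00640, adjusted p = 0.544). All knockout libraries were below all floxed libraries. In the pentose phosphate and hexosamine branches 7 of 11 were negative. Taldo1 and H6pd also had all knockouts below all floxed libraries, at 104 to 248 CPM in knockout hearts against 261 to 337 CPM in floxed hearts for Taldo1, and 59.3 to 71.3 CPM in knockout hearts against 72.6 to 94.7 CPM in floxed hearts for H6pd. Rpia, ribose-5-phosphate isomerase, had a log2 fold change of 0.62 ± 0.25 (SE; edgeR unadjusted p = 0.0411, adjusted p = 0.682).

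Of 13 genes at the entry of pyruvate into mitochondria and of the glycerol phosphate shuttle, 11 were negative. Dlat, a subunit of pyruvate dehydrogenase, and Mpc1, of the mitochondrial pyruvate carrier, had the smallest unadjusted edgeR p in that list, at 0.131 and 0.154, with log2 fold changes of -0.35 ± 0.21 and -0.46 ± 0.29 (SE). Pdk4, the kinase isoform that rises in fasting, was singled out after its values were seen. It had 326, 37.9 and 36.7 CPM in knockout 1 to 3, against 67.0, 444 and 394 CPM in floxed 1 to 3, the same high and low libraries as Pdk2 and Ldhb. Of 23 regulators of glucose use, such as hypoxia and insulin signalling genes, 11 were negative, and the smallest unadjusted edgeR p was 0.0703 for Tbc1d1, a regulator of GLUT4 traffic, at a log2 fold change of 0.37 ± 0.17 (SE), followed by 0.297 for Prkag2.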

How the data were processed

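Gene expression was measured by RNA-seq in 6 libraries of mouse heart RNA made with a stranded mRNA kit, per the labels' protocols. The deposited files hold raw counts in whole numbers for 35618 genes and FPKM, made by the authors, for 35606 genes. Tools named in the submitters' processing notes include the aligner HISAT2 2.1.0, the counter featureCounts 1.6.2 and the read trimmer fastp 0.19.3, besides Cufflinks and StringTie 1.3.4d, with no account of the steps they served. The handling of multi-mapping reads and the build of the table's positions are not given in the sources used here; positions are printed as they stand and sequences are on GRCm38. There were 0 value columns of other samples.

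The counts were fitted with edgeR 4.0.16 in R 4.3.3 (filterByExpr with a minimum count of 10, TMM, robust quasi-likelihood F test, genotype as the only term), which tested 16591 genes holding 99.8% of the counts, at a biological coefficient of variation of 33.3%. P-values were adjusted by Benjamini-Hochberg over all genes tested, at a threshold of 0.05, and intervals are 95%. CPM values are TMM-scaled, levels between genes were compared on the deposited FPKM, and isoform ratios were tested by an exact permutation test. The scripts were tested on simulated data. Near-identical copies were found with BLAST 2.17.0 from GENCODE M21. Promoters are from RefSeq.

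The 36 genes, the other lists and the tests were chosen with earlier results of these data known. Values in every library were to be given for genes with an unadjusted p under 0.05, genes whose groups do not overlap, the most abundant gene of each role and both genes of each pair. In the further lists, genes with an unadjusted p under 0.05 were to be named, or else the 2 with the smallest p. Hk3, Pdk4, Taldo1 and H6pd were named after their values were seen, as were Myl7, Sln, Myl4 and Nppa, and 1 further gene is not reported here. Alternatives were DESeq2 1.42.0, RLE scaling, no filter, a filter at 1 CPM on average, voom with limma 3.58.1, limma on log2 of FPKM + 1 or + 0.1 and with a mean FPKM of at least 1, library sizes without mitochondrial genes and Gsdmd, a replicate block, leaving out each library, and counts summed with pseudogene rows. Summing by sequence similarity was added after the data were seen. Figures were drawn with matplotlib 3.10.9.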

Additional observations from a re-analysis of the deposited data

How the results depend on the processing

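Of the whole table, 10 genes were called with no filter on low counts, 195 with DESeq2, 1 with limma-voom and 0 with the replicate block, against 2 in edgeR, and 0 to 500 with a library left out, where the 500 came without knockout 1 and each of the other libraries left out gave 0. Of the 36 genes, 0 were called except for 1 (Gapdh) with DESeq2 and 0 to 1 (Hk3, without knockout 1) with a library left out. The median log2 fold change over the 36 genes stayed negative under every setting, at -0.23 to -0.06 with a library left out. Libraries of the same number did not deviate alike from their group means, and these deviations correlated at -0.57, -0.31 and 0.04. Of the 6 libraries, floxed 3 alone correlated best with its own number in the other genotype, at that 0.04. Deviations from a mean of 3 libraries depend on each other, so this cannot settle whether the numbers pair the libraries. With the block 0 genes were called, with 252 higher and 257 lower at an unadjusted p under 0.05.

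Of 592 log2 fold changes of the 36 genes under all alternatives, 548 kept their direction and side of the threshold, 42 turned round and 2 passed it. Of the 36 genes 21 never turned round, 16 of them negative and 5 positive. Pfkp turned to -0.023 with limma-voom, -0.0019 with limma on FPKM + 1, with or without the filter on FPKM, -0.0054 with FPKM + 0.1 and -0.015 with the block. Pfkfb4 turned to -0.0088 with RLE, -0.0093 with no filter, -0.012 with DESeq2, -0.020 with limma-voom, -0.0072 with FPKM + 1, with or without the filter, -0.017 with FPKM + 0.1, -0.028 with the block and -0.016 without mitochondrial genes and Gsdmd in the library sizes. Eno1 turned to -0.027 with limma-voom, -0.0040 with FPKM + 1, with or without the filter, -0.0053 with FPKM + 0.1 and -0.0089 with the block, and Ugp2 to -0.0054 with limma-voom and -0.0011 with the block. The difference in the ratio of Hk2 to Hk1 turned to 0.0035 with FPKM + 1. The cause was not tested.

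With a library left out, log2 fold changes that turned round ranged from -0.022 to 0.36 for Slc2a1, -0.81 to 0.055 for Slc2a4, -0.16 to 0.56 for Slc16a3, -0.51 to 0.073 for Hk2, -0.21 to 0.19 for Pfkp, -0.036 to 1.17 for Pfkfb1, -0.45 to 0.63 for Pfkfb2, -0.17 to 0.20 for Pfkfb4, -0.67 to 0.075 for Pgk1, -0.47 to 0.27 for Pgam1, -0.65 to 0.30 for Pgam2, -0.23 to 0.30 for Eno1, -0.29 to 0.041 for Pkm, -0.42 to 0.0054 for Pdk1 and -0.27 to 0.25 for Ugp2. Among those that kept their sign, wide ranges were -1.05 to -0.02 for Pdk2, -0.89 to -0.06 for Pygm, -0.90 to -0.13 for Ldhb, -0.63 to -0.10 for Pfkm and 0.54 to 1.44 for Hk3. The differences in log2 ratio ranged from -1.33 to -0.0059 for Eno3 over Eno1, which kept its sign, and from -0.15 to 0.19 for Hk2 over Hk1, -1.05 to 0.0020 for Pfkfb2 over Pfkfb3, -0.98 to 0.85 for Pgam2 over Pgam1, -0.0069 to 0.27 for Pygm over Pygb and -0.69 to 0.073 for Pdk2 over Pdk1.

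With 3 libraries a group and these depths, differences the size of the median cannot be told from the spread between libraries. Aldoc, at 5 to 63 counts a library, is limited by depth as well.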
